A study of Mus musculus with 24 samples.

Results

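The Myc, Max and Mxd family of transcription factors was followed through mouse embryonic fibroblasts (MEFs) from which Myc, Mlx or both genes had been removed. Its members were taken as the rows named Myc, Mycn, Mycl, Max, Mnt, Mga, Mxd1, Mxd3, Mxd4 or Mxi1 in each of 2 expression tables, and all 10 were found in both tables among 41710 genes in each. One table held primary MEFs and the other MEFs immortalized with the T-antigen of SV40, a viral protein that disables p53 and the retinoblastoma proteins. Each of 4 groups had 3 libraries in each of these tables, namely WT cells, MlxKO cells without Mlx, MycKO cells without Myc and DKO cells without either gene, 24 libraries in all. The cells came from pools of at least 6 embryos of about embryonic day 14 to 16. All groups, WT included, carried loxP-flanked alleles of the genes concerned and a Cre recombinase fused to an oestrogen receptor (CreER) under the ubiquitous ROSA26 promoter. Excision was started with 500 nM 4-hydroxytamoxifen (4OHT), whereas WT cells received vehicle and retained their loci. The immortalized lines were transduced with lentivirus and selected as pools with blasticidin. Because each genotype was a pooled line of its own, genotype, line and exposure to 4OHT cannot be told apart. The study reports that primary MycKO and DKO cells had stopped growing when they were profiled. It also reports that most immortalized MycKO cells were tetraploid or nearly so. The part of either state in the results below was not tested. The study describes the libraries as biological replicates from triplicate sets of RNA per group, but it is not given in the sources used here whether each came from a culture of its own, so that a p-value measures the spread between these libraries, which may be technical.

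All members encode basic helix-loop-helix leucine zipper proteins, which bind DNA as dimers at the E-box, a 6-base motif. Myc, N-Myc (Mycn) and L-Myc (Mycl) must pair with Max to bind, recruit histone acetyltransferases and activate genes of ribosome building, metabolism and the cell cycle. Mxd1, Mxd3, Mxd4, Mxi1 and Mnt also pair with Max and occupy the same sites, but recruit the SIN3-HDAC corepressor, and Mga pairs with Max within the PRC1.6 Polycomb complex. Mlx is the Max-like partner of a parallel network, and Mxd1, Mxd4 and Mnt can pair with either. In fibroblasts Myc rises when quiescent cells enter the cycle and Mxd proteins accompany withdrawal from it.

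Levels are given as deposited, in CPM, which the authors computed from reads per gene and depth with a further scaling of each library, and libraries are numbered 1 to 3 within a group. Libraries held between 15986856 and 20966163 reads on genes, so that 3 reads, the limit below which no level is read, corresponded to 0.145 to 0.196 CPM (counting error only). Fold changes are on the log2(CPM + 1) scale, which understates changes of low genes, and were tested with limma over all 13101 primary or 12880 immortalized genes that reached 1 CPM in 3 or more of the 12 libraries. A gene was called at a Benjamini-Hochberg adjusted p under 0.05, in 2-sided tests. With 3 libraries a group, an exact permutation test of 1 gene has 0.10 as its smallest p. All 10 members passed the filter in both tables, but Mycn passed in immortalized cells through its MycKO libraries alone, so counts are also given over the other 9 members. Both tables were scaled separately and no test was made between them. The fibroblast markers were present in all groups, at summed levels of 42174 to 57855 CPM in primary and 17769 to 34242 CPM in immortalized libraries for all 8 of 8 genes. Macrophage markers summed to 132 to 251 CPM in primary WT, 149 to 175 CPM in the MlxKO, 21.0 to 26.2 CPM in the MycKO and 46.0 to 88.8 CPM in the DKO libraries, with 7 or 8 of 8 genes at 1 CPM or more in every group, and to 5.74 to 12.2 CPM in immortalized libraries. Proliferation markers, 7 genes, summed to 940 to 973 CPM in primary WT, 745 to 795 CPM in the MlxKO, 550.4 to 674 CPM in the MycKO and 453 to 481 CPM in the DKO libraries, against 1734 to 2427 CPM in immortalized libraries. The part of these differences in the results below was not tested, and in bulk RNA fewer cells of a type and less RNA per cell cannot be told apart.

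Library 3 of immortalized WT cells, the column named IMM_WT4, stood apart. Libraries were numbered in the order of the numbers in their column names, so that IMM_WT2 is library 1 here and IMM_WT3 is library 2. Its Pearson's r of log2(CPM + 1) across genes was 0.943 to 0.95 with WT libraries 1 and 2, which correlated at 0.992 with each other, whereas libraries within the other 7 groups correlated at 0.983 to 0.996. WT libraries 1 and 2 correlated more closely with immortalized DKO libraries (0.965 to 0.976) than with their own group's library 3. The summed level of 4 Y-linked genes was 11.5 and 8.66 CPM in WT libraries 1 and 2 and 179 CPM in library 3. Those genes also differed between the other lines, at 81.9 to 108 CPM in immortalized MlxKO libraries, 36.5 to 39.0 CPM in MycKO ones and 2.16 to 3.20 CPM in DKO ones. Primary lines differed as well, at 97.5 to 111 CPM in WT, 117 to 121 CPM in MlxKO, 125 to 161 CPM in MycKO and 18.8 to 19.8 CPM in DKO libraries. The part of this difference between lines in the primary DKO contrasts and interaction was not tested. Because WT library 3 stood apart, the immortalized counts and many of the contrasts are given with and without it, and the fit without it keeps the other 11 libraries. Where no value without it is printed, the value rests on all libraries.

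The promoters of 4 members are printed, namely the 3 whose windows hold an E-box and that of Mxi1, the Mxd gene with the largest fall in immortalized MycKO cells, whose window holds none. Each is given as 250 bases before and 50 bases after the start of the gene's canonical GENCODE vM39 transcript on GRCm39, read 5′ to 3′ on the gene's strand. Capitals mark the E-box CACGTG, the same letters on both strands. Max (chr12:77008951-77009250, minus strand), Mxd4 (chr5:34345191-34345490, minus strand) and Mxi1 (chr19:53317594-53317893, plus strand) all had lower levels in immortalized MycKO than in WT cells, and Mxd3 (chr13:55477555-55477854, minus strand) had a higher one.
Max: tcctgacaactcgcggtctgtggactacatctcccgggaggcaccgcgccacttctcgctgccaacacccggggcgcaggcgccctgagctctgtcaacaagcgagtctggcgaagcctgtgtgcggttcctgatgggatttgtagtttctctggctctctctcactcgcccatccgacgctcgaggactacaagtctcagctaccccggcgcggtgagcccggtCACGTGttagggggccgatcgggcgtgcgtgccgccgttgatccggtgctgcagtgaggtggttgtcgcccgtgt
Mxd4: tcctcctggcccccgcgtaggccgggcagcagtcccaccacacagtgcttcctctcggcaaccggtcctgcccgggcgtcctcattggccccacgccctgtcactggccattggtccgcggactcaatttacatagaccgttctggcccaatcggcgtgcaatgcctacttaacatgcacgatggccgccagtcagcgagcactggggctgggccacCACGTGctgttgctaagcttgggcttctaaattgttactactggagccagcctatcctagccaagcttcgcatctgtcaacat
Mxi1: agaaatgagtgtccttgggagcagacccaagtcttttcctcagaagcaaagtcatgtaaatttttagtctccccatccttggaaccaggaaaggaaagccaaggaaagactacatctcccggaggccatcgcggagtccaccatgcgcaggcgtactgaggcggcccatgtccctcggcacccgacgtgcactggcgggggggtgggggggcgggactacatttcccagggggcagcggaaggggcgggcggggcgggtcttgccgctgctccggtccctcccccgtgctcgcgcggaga
Mxd3: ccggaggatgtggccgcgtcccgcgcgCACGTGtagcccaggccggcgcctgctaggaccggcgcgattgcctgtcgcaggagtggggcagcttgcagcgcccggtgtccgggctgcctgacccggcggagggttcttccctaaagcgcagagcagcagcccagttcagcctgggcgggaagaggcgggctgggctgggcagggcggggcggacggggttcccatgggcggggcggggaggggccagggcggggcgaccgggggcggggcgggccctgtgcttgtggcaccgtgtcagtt
The E-box began 25 bases before the start in Max, 33 bases before it in Mxd4 and 223 bases before it in Mxd3, counted to its first base. These are 3 of the 10 members (30%), against 9.86% of 13560 promoters of the same length among the genes tested. The related letters CACGCG, searched on both strands and not overlapping CACGTG, were found in 1 of 10 members (10%), Mga, against 15.6% of promoters. Members with the E-box moved in both directions in the same comparison, since Max and Mxd4 were lower and Mxd3 higher in immortalized MycKO cells. A match describes the letters in this window and not an occupied site.

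Myc, the gene deleted in MycKO and DKO cells, lies at chr15:61857227-61862223 on the plus strand. In primary cells its level was 100.1, 89.8 and 91.8 CPM in WT libraries 1 to 3, 85.6, 89.6 and 87.3 CPM in the MlxKO, 25.8, 26.8 and 26.8 CPM in the MycKO and 21.6, 22.9 and 19.9 CPM in the DKO libraries. All libraries of both Myc-deleted groups lay below all those with intact Myc, and DKO lay below MycKO. The level was 28.2% of the WT mean in MycKO and 22.8% in DKO cells, and the fall from MycKO to DKO was -0.29 (SE 0.0707, limma adjusted p = 0.00634). The loxP sites flank exons 2 and 3, which hold 75.8% of the 2375 bases of the canonical transcript, and exon 1 (chr15:61857227-61857800, 574 bases) holds the other 24.2%. Counts per gene do not show which exons the remaining reads came from.

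In immortalized cells Myc stood at 48.1, 39.9 and 177 CPM in WT, 72.4, 82.8 and 79.5 CPM in the MlxKO, 17.2, 10.98 and 9.96 CPM in the MycKO and 8.02, 5.77 and 4.25 CPM in the DKO libraries. WT library 3 alone exceeded every other library, and the MlxKO libraries lay between it and WT libraries 1 and 2. Myc fell by 2.41 in MycKO (SE 0.434, limma adjusted p = 0.000817) and by 3.38 in DKO cells (adjusted p = 0.000385) on the log2 scale. Without WT library 3 the changes were -1.74 (adjusted p = 2.33e-05) and -2.71 (adjusted p = 1.90e-06). The remaining level was 14.4% of WT in MycKO and 6.80% in DKO with all libraries, and 28.9% and 13.7% of the mean of WT libraries 1 and 2. In MlxKO cells Myc did not pass the threshold with all libraries (0.16, adjusted p = 0.798), and without WT library 3 it was higher by 0.82 (adjusted p = 0.00955), or 178% of the mean of libraries 1 and 2.

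Mlx itself, the other deleted gene, served to check the labels. Its mean level was 23.7 ± 2.84 CPM (SD, n = 3) in primary WT, 13.5 ± 0.480 CPM in the MlxKO, 19.6 ± 2.02 CPM in the MycKO and 11.2 ± 1.25 CPM in the DKO group. In immortalized cells it was 23.0 ± 2.34, 13.8 ± 2.76, 25.1 ± 2.68 and 16.8 ± 1.96 CPM in the same order. The fall in immortalized MlxKO cells was -0.71 (limma adjusted p = 0.00471). In immortalized DKO cells the change was -0.44 and missed the threshold (adjusted p = 0.0694), whereas without WT library 3 it was -0.52 (adjusted p = 0.0340). Mlx thus remained at 47.2% to 72.7% of WT where it was deleted. The floxed exons 3 to 7 hold 32.4% of its canonical transcript, and 60.2% of that transcript is shared with Psmc3ip on the opposite strand, and reads outside the deleted part count toward the gene. Of the partners of Mlx, Mlxip had means of 51.5 to 68.8 CPM over the 8 groups and Mlxipl had means of at most 0.208 CPM, too low to test.

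Mycl differed between primary groups without overlap and was high in a single immortalized group. It encodes L-Myc, the paralog that is best known from lung and dendritic cells. In primary cells its libraries stood at 7.45, 6.08 and 7.48 CPM in WT, 3.41, 3.89 and 4.26 CPM in the MlxKO, 9.48, 8.31 and 10.4 CPM in the MycKO and 13.8, 13.7 and 13.0 CPM in the DKO cells. The 4 groups did not overlap, with MlxKO lowest and DKO highest. Mycl was lower by 0.72 in MlxKO (-0.72, SE 0.120, limma adjusted p = 0.00128), higher by 0.38 in MycKO (adjusted p = 0.0183) and higher by 0.86 in DKO cells (adjusted p = 1.76e-05). The rise in MycKO was 0.29 without WT library 2 (adjusted p = 0.0928) and 0.28 with reads divided by library totals (adjusted p = 0.0656), and so rests on those choices.

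In immortalized cells Mycl was at 0.234, 0.388 and 2.50 CPM in WT, 1.79, 2.10 and 1.17 CPM in the MlxKO, 14.8, 15.1 and 14.1 CPM in the MycKO and 0.569, 0.566 and 0.718 CPM in the DKO libraries. WT libraries 1 and 2 rested on 4 and 7 reads and library 3 on 41 reads. Only the MycKO libraries were far above the rest, and the DKO libraries lay among the WT ones. The rise in MycKO was 3.11 (SE 0.313, limma adjusted p = 1.14e-05), or 3.58 without WT library 3 (adjusted p = 1.53e-09). Between DKO and MycKO cells Mycl fell by 3.28 (adjusted p = 9.05e-06), whereas in primary cells it rose by 0.49 (adjusted p = 0.00709). In MlxKO cells Mycl was 0.55 above WT (adjusted p = 0.177), and 1.023 without WT library 3 (adjusted p = 0.000438).

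Mycn, which encodes the paralog of neural and embryonic progenitors, was the lowest member. In primary cells it had 1.016, 0.978 and 0.818 CPM in WT, 0.373, 0.478 and 0.308 CPM in the MlxKO, 1.66, 1.504 and 1.74 CPM in the MycKO and 1.28, 0.687 and 1.21 CPM in the DKO libraries. The MlxKO libraries lay below and the MycKO libraries above all WT libraries, and DKO overlapped with WT. The rise in MycKO was 0.45 (limma adjusted p = 0.0373) and was lost in 9 of 21 alternatives, including pseudocount 0.1 (adjusted p = 0.0718), DESeq2 on whole reads (adjusted p = 0.0797) and the omission of any WT library. DKO cells were above MlxKO cells by 0.56 (adjusted p = 0.00958).

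Immortalized cells held Mycn reads almost only in MycKO libraries. There were 41, 23 and 25 reads in the MycKO libraries (2.10, 1.26 and 1.41 CPM), 0, 1 and 0 reads in WT, 15 reads in all MlxKO libraries together (0.290, 0.150 and 0.306 CPM) and 0 reads in each DKO library. From the summed reads the MycKO level was 82.6-fold above WT, with a 95% exact interval of 14.4 to 3298, and at least 28.5-fold above DKO against a floor of 3 reads over the group. It was 6.44-fold above MlxKO (interval 3.70 to 12.0). These ratios cover counting error only. On the log2(CPM + 1) scale the differences were 1.33 for MycKO against WT and -1.36 for DKO against MycKO, and 1.32 and -1.36 without WT library 3. Mycn passed the filter through its MycKO libraries alone, so the direction of both was set by the filter and no p-value is given for them.

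**Figure D1:**
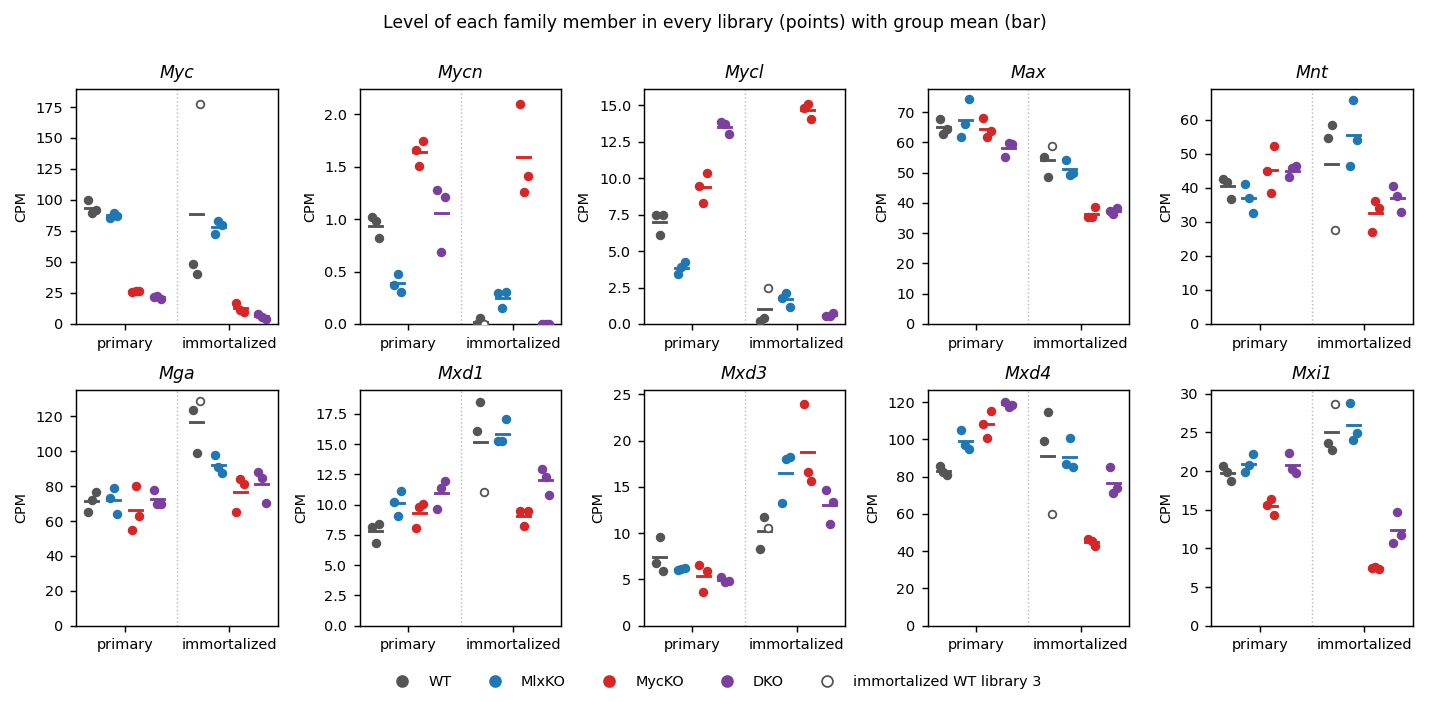
Level of each family member in every library. The vertical axes give CPM from 0 on a separate scale per gene, points are libraries, bars are means of 3 libraries, and immortalized WT library 3 is drawn open. Mycl reaches 14.1 to 15.1 CPM in immortalized MycKO libraries against at most 2.50 CPM in the other immortalized groups, and Mxi1 lies at 7.37 to 7.63 CPM there against 22.7 to 28.7 CPM in WT.

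Max, the shared partner of the family, lies at chr12:76984043-77009009, and its printed window holds the E-box. In primary cells its libraries were at 67.7, 62.7 and 64.5 CPM in WT, 61.7, 65.9 and 74.3 CPM in the MlxKO, 67.9, 61.7 and 63.6 CPM in the MycKO and 55.1, 59.8 and 59.5 CPM in the DKO cells. WT, MlxKO and MycKO overlapped, and the DKO libraries were below those of every other group. No contrast of a knockout with WT was called for Max, with -0.01 in MycKO (95% confidence interval -0.17 to 0.15), 0.05 in MlxKO (-0.11 to 0.21) and -0.16 in DKO cells (-0.31 to 0.002). DKO lay below MlxKO by 0.20 (log2 change -0.20, limma adjusted p = 0.0327), and this was lost without MlxKO library 3 (-0.13, adjusted p = 0.162) and in 5 other alternatives.

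In immortalized cells Max was at 55.3, 48.6 and 58.7 CPM in WT, 54.1, 49.3 and 49.9 CPM in the MlxKO, 35.3, 35.4 and 38.7 CPM in the MycKO and 37.3, 36.3 and 38.3 CPM in the DKO libraries. Both groups without Myc were below both groups with it, without overlap, and overlapped with each other. Max fell by 0.56 in MycKO (SE 0.102, limma adjusted p = 0.000944) and by 0.52 in DKO cells (adjusted p = 0.00498), and by 0.50 and 0.47 without WT library 3 (adjusted p = 0.00139 and 0.00637). The change in MlxKO was -0.08 (-0.30 to 0.14). Whether the fall differs from that in primary cells was not tested. Over the 12 immortalized libraries the genes most like Max by Pearson's r were Rfc1 (0.981), which loads the replication clamp, Pabpc1 (0.967), which binds poly-A tails, and Ppp1r9a (0.963). In primary cells they were Gtf2a2 (0.936), Sec13 (0.902) and Slc25a39 (0.897). The libraries share their groups, so these values describe group patterns and carry no test.

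Mxi1, an Mxd repressor also called Mxd2, lies at chr19:53298852-53364241 and had lower levels in MycKO cells of both tables. In primary cells it was at 20.6, 19.9 and 18.8 CPM in WT, 19.8, 20.8 and 22.2 CPM in the MlxKO, 15.6, 16.4 and 14.3 CPM in the MycKO and 22.4, 20.3 and 19.8 CPM in the DKO libraries. The MycKO libraries were below all others and the other groups overlapped. Mxi1 fell by 0.34 in MycKO against WT (SE 0.0891, limma adjusted p = 0.00572), and was 0.41 higher in DKO than in MycKO cells (adjusted p = 0.00307), where its change against WT was 0.07 (95% confidence interval -0.12 to 0.26).

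In immortalized cells Mxi1 stood at 23.7, 22.7 and 28.7 CPM in WT, 28.8, 24.02 and 24.9 CPM in the MlxKO, 7.51, 7.63 and 7.37 CPM in the MycKO and 10.7, 14.7 and 11.8 CPM in the DKO libraries. The order was MycKO below DKO below the overlapping WT and MlxKO groups. Mxi1 fell by 1.61 in MycKO (SE 0.145, limma adjusted p = 4.84e-06) and by 0.96 in DKO cells (adjusted p = 0.00106), and by 1.51 and 0.87 without WT library 3. It was 0.64 higher in DKO than in MycKO cells (adjusted p = 0.00533). The genes most like Mxi1 over 12 libraries were Hspb6 (Pearson's r 0.955), Cd24a (0.940) and Il1rn (0.936) in primary cells, and Rhot2 (0.985), Gpsm2 (0.981) and Car12 (0.980) in immortalized cells.

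Mxd4, an Mxd repressor that pairs with Max or Mlx, moved in opposite directions in the MycKO cells of the 2 tables. In primary cells its libraries were at 86.0, 82.7 and 81.0 CPM in WT, 105, 96.9 and 94.996 CPM in the MlxKO, 108, 101 and 115 CPM in the MycKO and 119.98, 118 and 119 CPM in the DKO cells. Every knockout library exceeded every WT library. The rise in MlxKO was 0.25 (limma adjusted p = 0.0225) and was lost without WT library 2 or 3 or MlxKO library 1 or 2 (0.20 to 0.26, adjusted p 0.0533 to 0.0919). DKO exceeded MlxKO by 0.26 (adjusted p = 0.00286).

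In immortalized cells Mxd4 was at 99.0, 115 and 60.01 CPM in WT, 86.6, 100.5 and 85.2 CPM in the MlxKO, 46.4, 45.4 and 42.5 CPM in the MycKO and 84.9, 71.4 and 74.0 CPM in the DKO libraries. The MycKO libraries were the lowest, and WT library 3 was lower than the other WT libraries and all DKO libraries. Mxd4 fell by 0.96 in MycKO (SE 0.189, limma adjusted p = 0.00147), or by 1.24 without WT library 3 (adjusted p = 1.09e-06), against the rise of 0.37 in primary MycKO cells. From MycKO to DKO it rose by 0.76 (adjusted p = 0.00924). DKO was not separated from WT with all libraries (-0.20, adjusted p = 0.473) and was below it without library 3 (-0.47, adjusted p = 0.0104). Of its canonical transcript, 14.8% is shared with genes on the opposite strand, and the strand setting of the counting is not given in the sources used here.

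Mxd1, the member induced in differentiating cells, was at 8.18, 6.84 and 8.36 CPM in WT, 10.2, 9.03 and 11.1 CPM in the MlxKO, 8.04, 9.81 and 10.0 CPM in the MycKO and 9.61, 11.4 and 12.0 CPM in the DKO libraries of primary cells. MlxKO and DKO libraries lay above all WT libraries. The rise in DKO was 0.45 (SE 0.124, limma adjusted p = 0.00677), and the difference in MlxKO, 0.34, missed the threshold (adjusted p = 0.104). In immortalized cells the libraries were at 16.0, 18.5 and 11.02 CPM in WT, 15.2, 15.3 and 17.1 CPM in the MlxKO, 9.46, 8.24 and 9.46 CPM in the MycKO and 12.9, 12.3 and 10.8 CPM in the DKO cells. Mxd1 fell by 0.66 in MycKO (adjusted p = 0.00750), or by 0.86 without WT library 3 (adjusted p = 0.000134). In DKO the change of -0.29 (adjusted p = 0.246) became -0.49 (adjusted p = 0.0194) without that library.

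Mxd3, the Mxd member known from cycling cells in S phase, was at 6.77, 9.56 and 5.90 CPM in WT, 5.97, 6.10 and 6.26 CPM in the MlxKO, 6.60, 3.60 and 5.93 CPM in the MycKO and 5.26, 4.75 and 4.84 CPM in the DKO libraries of primary cells. DKO libraries lay below all WT libraries (-0.48, limma adjusted p = 0.0348), but without WT library 2 the change was -0.30 (adjusted p = 0.191). In immortalized cells its libraries were at 8.26, 11.7 and 10.6 CPM in WT, 13.3, 17.97 and 18.2 CPM in the MlxKO, 23.9, 16.6 and 15.6 CPM in the MycKO and 14.6, 10.97 and 13.4 CPM in the DKO cells. MlxKO and MycKO exceeded WT without overlap, by 0.65 (adjusted p = 0.0217) and 0.81 (adjusted p = 0.00533), or 0.68 (adjusted p = 0.0166) and 0.84 (adjusted p = 0.00389) without WT library 3. The MlxKO call for Mxd3 was lost without WT library 1 (0.51, adjusted p = 0.0882), MlxKO library 2 (0.58, adjusted p = 0.0859) or MlxKO library 3 (0.57, adjusted p = 0.0843), whereas the MycKO call held in all 22 alternatives. The gene shares 55.9% of its canonical transcript with Prelid1 on the opposite strand. Prelid1 averaged 361 ± 8.53, 354 ± 29.8, 305 ± 11.6 and 309.6 ± 15.1 CPM in primary WT, MlxKO, MycKO and DKO cells, and 312 ± 43.2, 338 ± 28.4, 396 ± 42.2 and 315 ± 10.8 CPM in immortalized ones. It was lower in the primary and higher in the immortalized MycKO mean than in WT, as Mxd3 was, and its part in the Mxd3 counts was not tested.

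Mnt and Mga are the widely expressed members outside the Mxd group. Mnt, which pairs with Max or Mlx and recruits SIN3, was at 42.7, 41.8 and 36.8 CPM in primary WT, 41.0, 37.0 and 32.7 CPM in the MlxKO, 44.9, 38.3 and 52.2 CPM in the MycKO and 43.1, 45.7 and 46.4 CPM in the DKO libraries. No contrast with WT was called for it, and DKO exceeded MlxKO by 0.29 (limma adjusted p = 0.0325), which was lost with library totals (0.18, adjusted p = 0.179) and without MlxKO library 3 (0.20, adjusted p = 0.153). In immortalized cells Mnt was at 54.6, 58.5 and 27.5 CPM in WT, 46.4, 65.9 and 54.0 CPM in the MlxKO, 27.1, 36.1 and 34.2 CPM in the MycKO and 40.5, 37.7 and 32.8 CPM in the DKO libraries. WT library 3 lay among the MycKO libraries, and Mnt was called against WT only when that library was left out. With all libraries the MycKO change was -0.45 (adjusted p = 0.139), and without WT library 3 Mnt fell by 0.79 in MycKO (adjusted p = 0.000836) and by 0.60 in DKO cells (adjusted p = 0.0142).

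Mga, the scaffold of PRC1.6, did not differ from WT beyond its spread in primary cells, where the 12 libraries lay between 54.8 and 80.3 CPM and the 95% confidence intervals of the 3 contrasts with WT reached from -0.36 to 0.26. In immortalized cells it was at 124, 99.0 and 129 CPM in WT, 98.1, 90.9 and 87.3 CPM in the MlxKO, 65.3, 84.1 and 81.0 CPM in the MycKO and 88.0, 84.8 and 70.6 CPM in the DKO libraries. All knockout libraries were below all WT libraries. Mga fell by 0.60 in MycKO (limma adjusted p = 0.00341) and by 0.52 in DKO cells (adjusted p = 0.0204), and by 0.53 and 0.45 without WT library 3. The DKO call was lost without WT library 1 (-0.48, adjusted p = 0.0655) or DKO library 3 (-0.42, adjusted p = 0.0843). In MlxKO the change was -0.34 (adjusted p = 0.0671).

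Counted over the family, 5 of 10 members were called in primary MycKO cells against WT, where 42.3% of all genes tested were called, with Mycn, Mycl and Mxd4 higher and Myc and Mxi1 lower. The counts and medians of both tables include Myc. Its fall in MycKO or DKO cells against WT or MlxKO cells is the deletion itself and not a result about the family. In MlxKO cells 2 were called (Mxd4 higher, Mycl lower), against 8.88% of all genes, and in DKO cells 5 (Mycl, Mxd1 and Mxd4 higher, Myc and Mxd3 lower), against 49.5%. Between DKO and MycKO cells 3 members were called, against 21.5% of genes, with Mycl and Mxi1 higher in DKO and Myc lower. Between DKO and MlxKO cells 6 were called, against 49.1% of genes, with Mycn, Mycl, Mnt and Mxd4 higher in DKO and Myc and Max lower. The median log2 fold change over the members was 0.07 for MycKO, -0.04 for MlxKO and 0.07 for DKO against WT, beside medians of 0.00 over all genes. These shares lay near the background except in MlxKO cells, where the count fell from 2 to 1 without WT library 2 or 3 or MlxKO library 1 or 2.

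In immortalized MycKO cells 9 of 10 members were called, and 8 of the 9 other than Mycn, where 48.0% of all genes were. Higher were Mycn, Mycl and Mxd3, and lower were Myc, Max, Mga, Mxd1, Mxd4 and Mxi1, so that Max and 4 of the 6 genes encoding repressors were lower together. Without WT library 3 all 10 were called, with Mnt among the lower ones, against 54.0% of genes. MlxKO cells had 1 member called (Mxd3), against 38.9% of genes, a call lost without WT library 1 or MlxKO library 2 or 3, and 3 without WT library 3 (Myc, Mycl, Mxd3), against 46.8%. In DKO cells 4 members were called, against 18.9% of genes, and all were lower (the deleted Myc itself, Max, Mga and Mxi1). Without WT library 3 there were 7 (also Mnt, Mxd1 and Mxd4), against 22.0%. From MycKO to DKO 4 members were called, against 29.4% of genes, with Mxd4 and Mxi1 higher and Mycn and Mycl lower, and 6 without WT library 3, against 40.9%. Since Mycn had to be lower there through the filter, these are 3 and 5 of the 9 other members. From MlxKO to DKO 3 were called (Myc, Max and Mxi1, all lower), against 30.1%, and 6 without WT library 3, against 43.2%. The median over the members was -0.58 for MycKO, 0.12 for MlxKO and -0.28 for DKO, and -0.66, 0.06 and -0.47 without WT library 3, beside medians of -0.01 to 0.01 over all genes.

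**Figure D2:**
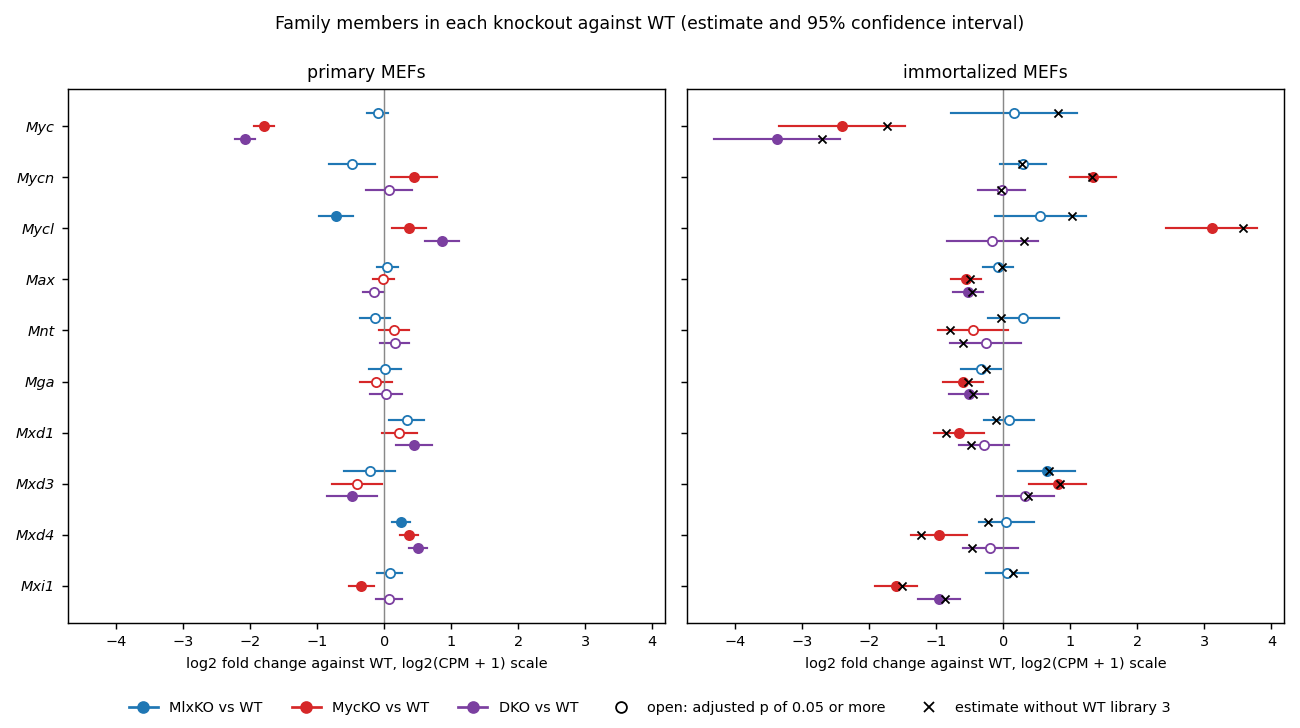
Log2 fold change of each member in MlxKO (blue), MycKO (red) and DKO (purple) against WT on the log2(CPM + 1) scale, with 95% confidence intervals, for primary (left) and immortalized MEFs (right). Filled points passed an adjusted p of 0.05, and crosses give the estimate without immortalized WT library 3. Mxd4 lies at 0.37 in primary and -0.96 in immortalized MycKO cells, and Mxi1 lies below 0 in both.

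The Myc-by-Mlx interaction asks whether deletion of Myc changed a gene differently in cells without Mlx than in cells with it. In primary cells 1 of 10 members was called (Mycl, 1.21, SE 0.169, limma adjusted p = 0.000111), where 13.5% of all genes were. In immortalized cells 5 of 10 were called, 4 of the 9 other than Mycn, where 47.4% of genes were. Mycl had -3.83 (SE 0.442, adjusted p = 4.64e-05), opposite in sign to primary cells, Mycn had -1.65 and Mxd3 had -1.12 (adjusted p = 0.00584). The Mycn value is no support of its own, since Mycn passed the filter through its MycKO libraries alone. Mxi1 had 0.59 (adjusted p = 0.0316) and Mxd4 0.72 (adjusted p = 0.0418), so that both fell less on deletion of Myc in cells without Mlx. Without WT library 3 the 5 estimates were -4.30, -1.64, -1.16, 0.49 and 1.00 in that order, each with an adjusted p under 0.05, and Myc (-1.79, adjusted p = 0.000238) and Mxd1 (0.48, adjusted p = 0.0358) were called as well, 7 of 10 and 6 of the 9 other than Mycn, against 56.7% of genes. The Mxd4 value missed the threshold in 12 of 21 alternatives and the Mxi1 value in 6.

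**Figure D3:**
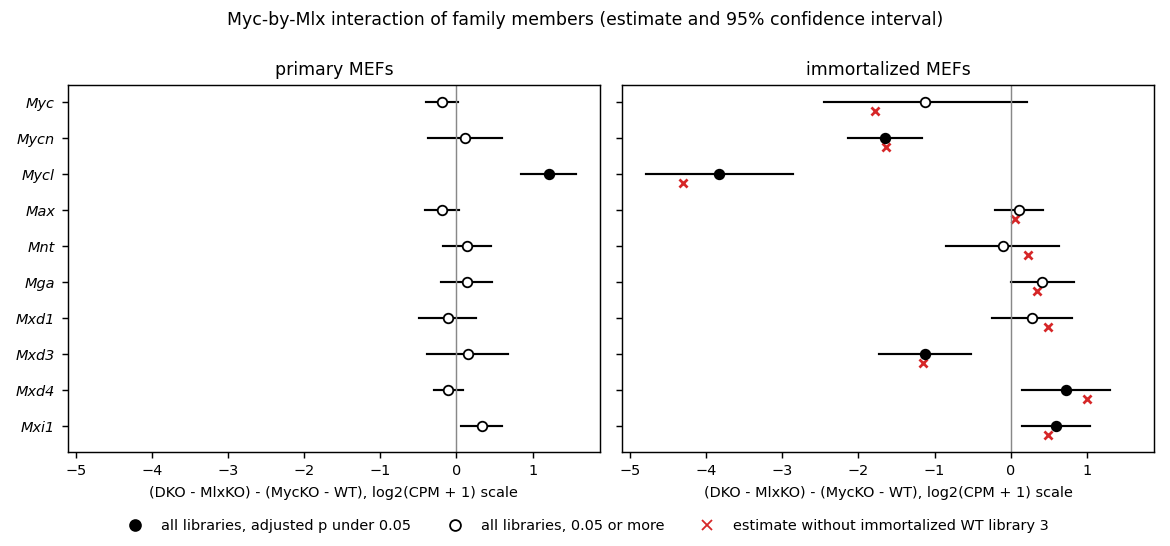
Myc-by-Mlx interaction of each member, the difference between DKO and MlxKO less the difference between MycKO and WT, on the log2(CPM + 1) scale with 95% confidence intervals. Filled points passed an adjusted p of 0.05, and crosses give the estimate without immortalized WT library 3. Mycl lies at 1.21 in primary and -3.83 in immortalized cells.

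For a comparison between genes, levels were divided by the exon length of each gene, merged over all its annotated transcripts. That length was 2730 bases for Myc, 4306 for Max and 8659 for Mxd4, against 2375, 1956 and 4058 bases of their canonical transcripts. The order, shares, sums and ratios per kb depend on this choice and were not computed with canonical lengths. Per kb, Myc was the highest member in primary WT (34.4 ± 2.00 CPM per kb, SD, n = 3) and MlxKO cells (32.1 ± 0.729), and it formed 43.2% and 41.0% of the family's summed level. In WT cells Max (15.1 ± 0.588), Mxd4 (9.61 ± 0.291), Mnt (7.60 ± 0.604) and Mga (4.64 ± 0.364) followed without overlap of neighbours. Below them Mxi1 (2.73 ± 0.129) and Mxd3 (2.69 ± 0.692) overlapped, and Mycl (1.66 ± 0.190), Mxd1 (1.06 ± 0.113) and Mycn (0.203 ± 0.0227) came last. In MycKO cells Max led (15.0 ± 0.734) and Myc, at 16.8% of the sum, overlapped with Mnt. In DKO cells Mxd4 (13.7 ± 0.140) and Max (13.5 ± 0.612) overlapped at the top and Myc formed 13.6%.

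In immortalized WT cells Myc led as well, at 35.7% ± 20.8 of the sum, a spread set by library 3, and Max, Mxd4, Mnt and Mga overlapped with their neighbours. Myc formed 36.0% ± 0.862 in MlxKO cells, 10.9% ± 2.89 in MycKO cells and 5.42% ± 1.33 in DKO cells, where Mxd4 and Max again overlapped at the top. Summed over the 3 Myc paralogs the level was 36.3 ± 2.14 CPM per kb in primary WT, 33.1 ± 0.795 in MlxKO cells, 12.3 ± 0.322 in MycKO cells and 11.3 ± 0.585 in DKO cells. The 6 genes for repressors (Mnt, Mga, Mxd1, Mxd3, Mxd4, Mxi1) summed to 28.3 ± 1.10, 29.5 ± 1.39, 30.6 ± 1.91 and 33.1 ± 0.265 CPM per kb in the same order. The ratio of repressors to Myc paralogs was thus 0.783 ± 0.0561 in WT, 0.894 ± 0.0566 in MlxKO cells, 2.49 ± 0.0968 in MycKO cells and 2.93 ± 0.164 in DKO cells. Myc, the deleted gene, was most of the paralog sum in primary WT cells (34.4 of 36.3 CPM per kb). The share of Myc and this ratio therefore largely restate the deletion in MycKO and DKO cells of both tables. Reads left at the deleted gene still count as Myc over its full exon length.

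In immortalized cells the same ratio was 0.454, 2.16 and 2.76 in the WT libraries, lowest in library 3, and 1.33 ± 0.0317 in MlxKO cells, 3.04 ± 0.471 in MycKO cells and 12.9 ± 2.74 in DKO cells. The repressors summed to 36.2 ± 5.69 CPM per kb in WT, 38.6 ± 2.95 in MlxKO cells, 25.3 ± 0.656 in MycKO cells and 29.2 ± 2.27 in DKO cells, and the Myc paralogs to 14.7, 17.7 and 65.6 CPM per kb in the WT libraries, 29.1 ± 1.96 in MlxKO cells, 8.48 ± 1.57 in MycKO cells and 2.35 ± 0.678 in DKO cells. Mycn and Mycl together contributed 3.83 ± 0.167 CPM per kb in MycKO and 0.147 ± 0.0207 in DKO cells. In primary cells that contribution was 2.58 ± 0.271 in MycKO and 3.44 ± 0.110 in DKO cells. These sums are levels of RNA and carry no test.

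**Figure D4:**
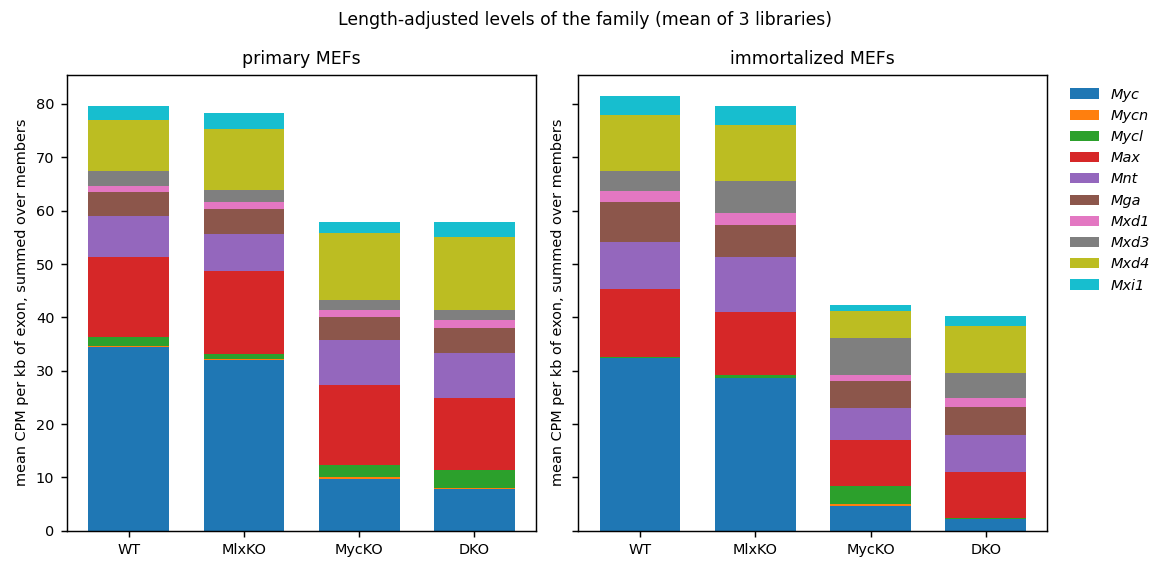
Mean CPM per kb of exon of the 10 members, stacked, in the 4 groups of primary (left) and immortalized MEFs (right), means of 3 libraries. Myc fills 43.2% of the primary WT bar and 13.6% of the primary DKO bar, and 39.8% and 5.48% of the immortalized ones. The immortalized WT bar includes library 3, whose Myc level was 177 CPM against 48.1 and 39.9 CPM in libraries 1 and 2.

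Genes that work with the family were followed as lists, whose counts are to be read against all genes tested. In primary cells 20.4% of all genes were higher and 21.9% lower in MycKO, 3.75% higher and 5.14% lower in MlxKO, and 24.01% higher and 25.5% lower in DKO cells. Of 20 genes known as activated by Myc, 18 fell and 1 rose in primary MycKO cells and 19 fell in DKO cells, with list medians of -0.70 and -0.91. Tfrc, the transferrin receptor, fell from 113 ± 4.26 to 29.4 ± 1.91 CPM in DKO (-1.91, SE 0.0835, limma adjusted p = 6.34e-11). Ccnd2, a D-type cyclin, was the 1 that rose in MycKO (0.53, adjusted p = 2.25e-05). In MlxKO cells 4 of the 20 were lower. Of 6 genes known as repressed by Myc, 4 rose in MycKO, 3 in MlxKO and 5 in DKO, led by Pdgfrb, a growth factor receptor, at 495 ± 18.6 in WT and 706 ± 16.9 CPM in DKO cells (0.51, adjusted p = 1.81e-06). The summed proliferation markers, given above, were also lowest in primary MycKO and DKO cells.

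In immortalized cells 24.4% of all genes were higher and 23.5% lower in MycKO, 19.1% higher and 19.9% lower in MlxKO, and 10.4% higher and 8.51% lower in DKO cells. Without WT library 3 these shares were 27.3% and 26.7%, 23.1% and 23.8%, and 12.0% and 10.1%. Of the 20 activated genes, 9 fell and 4 rose in MycKO cells (Ccnd2 0.51, Fbl 0.48, Ldha 0.54 and Cdk4 0.41), and 5 lower and 3 higher without WT library 3, where Ccnd2 was 0.26 (limma adjusted p = 0.0790). In DKO cells 10 of the list were lower, and 7 lower and 2 higher without that library. In MlxKO cells 4 were higher and 2 lower, and 11 higher and 2 lower without it. Tfrc had -1.30 in DKO cells (adjusted p = 0.0214), at 142 ± 102 in WT and 48.9 ± 5.27 CPM in DKO cells, and -0.75 without WT library 3. Of the 6 repressed genes 3 were higher and 1 lower in MycKO and 2 higher and 1 lower in DKO cells, among them Gadd45a (0.69) and Ndrg1 (-0.50), and these counts were the same without WT library 3.

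Among corepressor subunits of SIN3-HDAC, 2 of 16 were higher and 5 lower both in primary MycKO and in primary DKO cells. Of all genes, 20.4% were higher and 21.9% lower in primary MycKO, and 24.01% higher and 25.5% lower in primary DKO cells. In primary MlxKO cells limma called 0 of the 16, with 1 at an unadjusted p under 0.05, and edgeR and DESeq2 each called 0. Arid4a had the largest rise in DKO (20.8 ± 0.390 to 27.4 ± 1.68 CPM, 0.38, limma adjusted p = 0.00104) and Sap18 the largest fall (35.2 ± 1.99 to 22.2 ± 1.57 CPM, -0.64, adjusted p = 2.46e-05). In immortalized DKO cells Sap18 had the largest rise instead (37.8 ± 10.6 to 67.1 ± 4.63 CPM, 0.85, adjusted p = 0.00564, and 1.06 without WT library 3), and Arid4b had the largest fall (-0.53, adjusted p = 0.0140). Immortalized MycKO cells had 4 subunits higher and 4 lower (6 and 4 without WT library 3), MlxKO cells 3 and 4 (4 and 3) and DKO cells 2 and 2 (also without it). Of all genes there, 24.4% were higher and 23.5% lower in MycKO, 19.1% and 19.9% in MlxKO, and 10.4% and 8.51% in DKO cells.

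Of 12 Myc coactivators, 5 were lower in primary MycKO and 5 in primary DKO cells, 5 of 12 each time against 21.9% and 25.5% of all genes lower, led by Ruvbl2, a helicase subunit of the TIP60 complex (56.1 ± 4.95 to 29.1 ± 1.19 CPM in DKO, -0.92, limma adjusted p = 1.34e-06). In immortalized cells 4 were lower in MycKO, against 23.5% of all genes, and 3 higher in MlxKO, against 19.1%. Without WT library 3 there were 2 higher and 4 lower in MycKO, against 27.3% and 26.7% of all genes. In MlxKO 4 were then higher and 1 lower, against 23.1% and 23.8%. In immortalized DKO cells limma called 0 of the 12, with 2 at an unadjusted p under 0.05 (1 without WT library 3), and edgeR and DESeq2 each called 0. Of 10 PRC1.6 subunits other than Max and Mga, 3 were lower in primary MycKO, against 21.9% of all genes lower. In primary DKO cells 6 were lower and 1 higher, against 25.5% of all genes lower and 24.01% higher, with Tfdp1 (-0.72, adjusted p = 4.40e-08) and Ring1 (0.38, adjusted p = 0.0480) at the ends. In immortalized cells 3 were lower and 1 higher in MycKO (3 and 2 without WT library 3), 4 lower and 1 higher in MlxKO (also without it) and 2 lower in DKO cells (1 without it), where Rybp had -0.56 (adjusted p = 0.0161). Of all genes there, 23.5% were lower and 24.4% higher in MycKO, 19.9% and 19.1% in MlxKO, and 8.51% lower in DKO cells.

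Of 10 genes for Myc protein turnover, 4 were lower and 1 higher in primary MycKO and 4 lower in DKO cells, against 21.9% of all genes lower in MycKO and 25.5% in DKO. Cip2a, which protects Myc from dephosphorylation, went from 62.5 ± 5.36 to 29.8 ± 1.11 CPM in DKO (-1.04, limma adjusted p = 7.80e-07). In immortalized cells 3 were higher and 3 lower in MycKO (4 and 3 without WT library 3), 2 higher and 1 lower in MlxKO (4 and 1), and 1 higher and 3 lower in DKO cells (2 and 2). Of all genes there, 24.4% were higher and 23.5% lower in MycKO, 19.1% and 19.9% in MlxKO, and 10.4% and 8.51% in DKO cells. In the DKO cells Stub1, a ubiquitin ligase, had 0.65 (adjusted p = 0.0105, 0.53 without library 3) and Skp2, a subunit of a ligase for Myc, -0.67 (adjusted p = 0.00875, -0.49 without it). Of 12 germline genes known as repressed by PRC1.6, only 1 reached the filter in each table, so the list was not examined further.

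**Figure D5:**
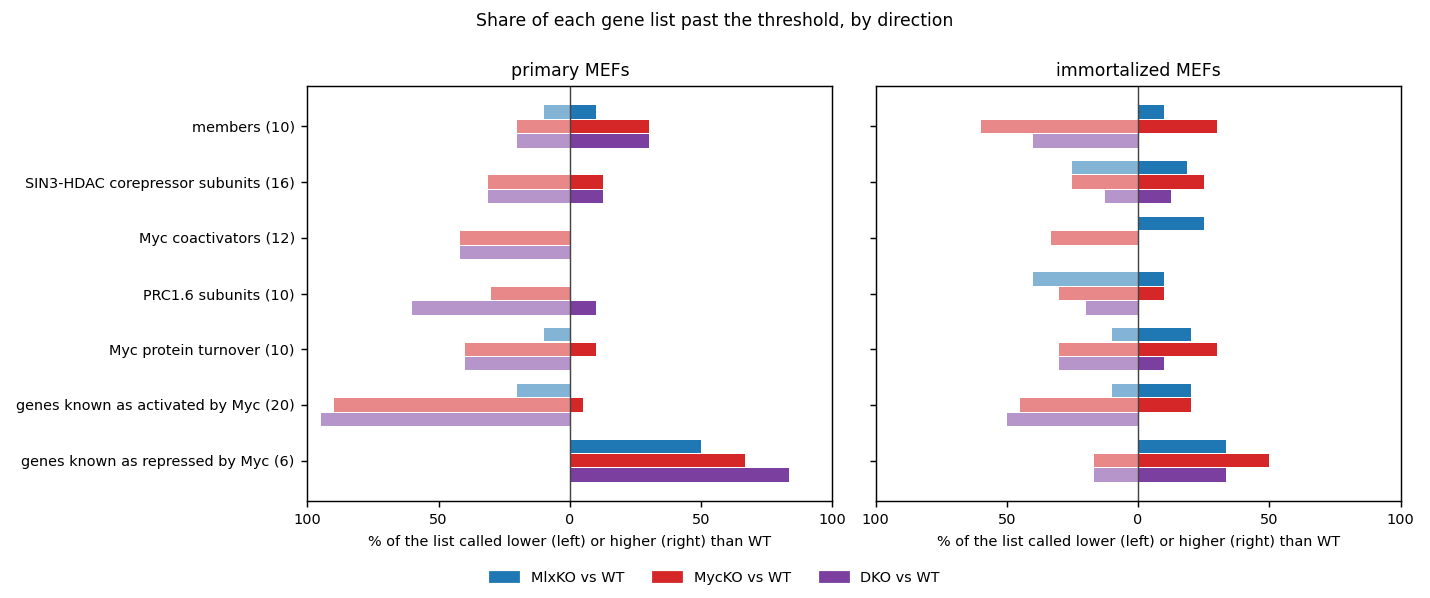
Share of each list called lower (left of 0) or higher (right of 0) than WT at an adjusted p under 0.05, in percent of the list, for MlxKO (blue), MycKO (red) and DKO (purple), with the number of genes in the list in parentheses. In primary cells 18 of 20 genes known as activated by Myc were lower in MycKO and 19 in DKO, against 9 and 10 in immortalized cells, where WT library 3 is included.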

How the data were processed

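RNA was sequenced from 12 primary and 12 immortalized MEF libraries. Libraries were directional and made from poly-A RNA, and the authors used CLC Genomics Workbench to place and count reads on GRCm39. The deposited signal is named CPM and its sums per library ranged from 915691 to 1077213, so that a scaling between libraries, not named in the sources used here, is in the values. The design had assumed unscaled CPM, and the deposited signal was not rescaled. Each nonzero value was a whole number of reads (100%, tolerance 0.01), which gave the depth. The numbers in column names could not be matched to the labelled replicates, so columns were assigned to groups only.

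Values were fitted as log2(CPM + 1) with limma 3.58.1 in R 4.3.3 (mean trend in the variance prior, 4 groups per fit), with Benjamini-Hochberg adjustment over genes at 1 CPM or more in 3 or more of 12 libraries. Alternatives were a pseudocount of 0.1, no filter, a mean of at least 5 CPM, median-ratio scaling, library totals, only the groups compared, a robust prior, each library left out, edgeR 4.0.16 and DESeq2 1.42.0 on whole reads, and calls common to limma, edgeR and DESeq2. List counts without immortalized WT library 3 were chosen after the data were seen. Reads were also simulated for the 12 primary libraries from each gene's mean over all of them, with the same fixed dispersion for every gene. Among 12914 genes, 100 had a log2 change of 1 and 98 a change of 2 in MycKO against WT. Of those 100 genes limma found 99%, edgeR 98% and DESeq2 95%. The tools called 12, 12 and 16 of 12716 unchanged genes. Far more genes were called in the real contrasts, and immortalized WT libraries spread more widely, so these rates need not hold there.

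The members and lists were chosen with earlier results of these data known. Genes named were the 10 members, Mlx, Mlxip and Mlxipl, for each list and table the largest rise and fall in DKO against WT among genes called without overlap, and for Max and Mxi1 the 3 genes of highest r. Prelid1, Psmc3ip, Ccnd2, Fbl, Ldha, Cdk4 and the Y-linked genes were chosen after their values were seen. Gene positions and promoters came from GENCODE vM39 on GRCm39, the build of the files, where 41181 of 41710 genes were found and 529 were not. Figures were drawn with matplotlib 3.10.9. Binding sites, proteins and other assays were not analysed here. Promoter sequences of the other members are not reported here.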

Additional observations from a re-analysis of the deposited data

Results flagged for a closer look

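Each of the following was selected because an effect differed between 2 groups. The effect of Myc deletion differed between cells with and without Mlx by the interaction test for Mycl in primary cells (1.21 on the log2 scale), and in immortalized cells for Mycl (-3.83), Mycn (-1.65), Mxd3 (-1.12), Mxd4 (0.72) and Mxi1 (0.59). Immortalized Mycn was at 0 or 1 read in each WT and DKO library, so that its value depends on the pseudocount. It also passed the filter through its MycKO libraries alone, so its value is no support of its own.

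Other effects had opposite directions in primary and immortalized cells, with all libraries of one group above or below those of the other. These differences between tables were not tested, since the tables were scaled separately, and the immortalized contrasts with WT include the WT library that stands apart. Mxd4 had 0.37 in primary and -0.96 in immortalized MycKO against WT, both called. Mycl had 0.49 in primary and -3.28 in immortalized DKO against MycKO, both called. Against MlxKO, DKO cells had 1.59 and -0.72 for Mycl, 0.56 and -0.32 for Mycn, 0.29 and -0.56 for Mnt, and 0.26 and -0.24 for Mxd4 in primary and immortalized cells, where the primary values were called and the immortalized ones were not. Mycn in MlxKO against WT had -0.48 and 0.29, neither called. With library totals, primary Mnt and Mxd4 between DKO and MlxKO fell short of the threshold (0.18 and 0.15).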

How the results depend on the processing

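Of 48 pairs of a member and a comparison that were called, 37 kept their call under all alternatives run, 11 lost it under at least 1, and none changed direction. The 37 include Myc in MycKO and DKO against cells with intact Myc, which is the deletion itself. They also include immortalized Mycn, whose direction the filter set. Mycn in both tables and immortalized Mycl were not tested with a mean of at least 5 CPM, so that alternative could not take their calls. Among counts of members and list genes and the members' levels, 225 alternatives other than the omission of a library stayed within 1.5 times or 1 SD, and the following 15 did not, all but 1 in immortalized cells. The members called in MlxKO against WT were 2 with pseudocount 0.1, edgeR and DESeq2, against 1. All genes called there were 4933, 4925 and 5311 in that order, against 5014 in the main fit. Those in DKO against MycKO were 2 with a mean of at least 5 CPM, against 4. Those in DKO against MlxKO were 6 with library totals, 6 with only the groups compared and 5 with DESeq2, against 3, and those in the interaction were 3 with a mean of at least 5 CPM and 3 with library totals, against 5. All genes called in DKO against MlxKO were 4340 with library totals, 6011 with only the groups compared and 4291 with DESeq2, against 3879 of 12880. Genes of the other lists called in MycKO were 23 with only the groups compared, against 39, in DKO 14 with no filter and 4 with only the groups compared, against 23, and in DKO against MycKO 16 with only the groups compared, against 10. With only the groups compared, all genes called moved the same way. They were 4184 in MycKO (6176 in the main fit), 906 in DKO (2434) and 4730 in DKO against MycKO (3788). With no filter 1958 of 20356 genes were called in DKO. With library totals, the median ratio of member levels to the deposited ones was 0.999 in primary and 0.974 in immortalized cells, and 4 and 6 of 40 group means moved by more than 1 SD. That scaling moved the median of all genes by -0.10 in primary DKO against MlxKO, and in immortalized cells by 0.15 in MlxKO against WT, -0.15 in DKO against MlxKO and -0.16 in the interaction. With a mean of at least 5 CPM, immortalized Mycn (mean 0.464 CPM) and Mycl (4.50 CPM) were left untested. Their calls thus dropped out of the counts in DKO against MycKO and in the interaction. The smaller fits have fewer libraries for the spread, and the cause of the other shifts was not tested.

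With each library left out in turn, primary members called ranged from 3 to 7 in MycKO, 1 to 2 in MlxKO, 4 to 5 in DKO, 3 to 4 in DKO against MycKO and 4 to 6 in DKO against MlxKO, and stayed at 1 in the interaction. Immortalized ones ranged from 9 to 10, 0 to 3, 3 to 7, 4 to 6 and 3 to 6 in the same order, and from 3 to 7 in the interaction. For the other lists the primary ranges were 39 to 51, 5 to 14, 41 to 52, 14 to 33, 43 to 48 and 7 to 16, and the immortalized ones 31 to 40, 13 to 39, 6 to 27, 4 to 18, 17 to 38 and 22 to 40. Primary MycKO members fell to 3 without WT library 2 or MycKO library 3, where 4833 and 4785 of 13101 genes were called, against 5541. Immortalized MlxKO members were 0 by limma without WT library 1 or MlxKO library 2 or 3 (1 of 10 at an unadjusted p under 0.05 in each, and 2 by edgeR and 2 by DESeq2 with all libraries), 2 without WT library 2 or MycKO library 1 and 3 without WT library 3. The immortalized interaction fell to 3 without MlxKO library 3, MycKO library 2 or 3, or DKO library 2. All genes called in immortalized MlxKO cells were 3494, 2884 and 3180 without WT library 1, MlxKO library 2 and MlxKO library 3, against 5014. List counts in immortalized DKO cells were lowest, at 6, without DKO library 1, where 1115 of 12880 genes were called, against 2434. No paired analysis was possible because the columns carry no replicate numbers of the labels.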
